A study of Mus musculus with 20 samples.

Results

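The Fc gamma receptors and the C-type lectins treated here are 10 genes of pattern and antibody recognition in macrophages, namely Fcgr1, Fcgr2b, Fcgr3, Fcgr4, Fcer1g, Clec4d, Clec4e, Clec4n, Clec7a and Mrc1. They were taken by symbol from a table of 17787 genes, and all 10 passed a filter on low values (a normalized value of 10 or more in 3 or more libraries) that kept 12061 genes. RNA had been sequenced from bone marrow-derived macrophages, which were grown for 7 days from marrow of male C57BL/6J mice in medium containing L929 cell supernatant. They were transfected for 48 h with 50 nM siRNA against Brg1 or control siRNA. Brg1, encoded by Smarca4, is an ATPase of the BAF complex, which remodels chromatin. During the last 6 h each siRNA group received vehicle (ethanol and phosphate-buffered saline), lipopolysaccharide (LPS, a bacterial cell wall component sensed through a Toll-like receptor, 100 ng/ml), or the same LPS together with the synthetic glucocorticoid dexamethasone (Dex, 1 µM). With Brg1 siRNA there were 3 libraries from vehicle, 3 from LPS and 4 from Dex+LPS, and with control siRNA likewise 3, 3 and 4, although the series' design text speaks of 3 replicates. The labels do not say whether replicates are separate animals or cultures, so every p-value measures only the spread between these samples, which may be technical.

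Fc gamma receptors bind the constant region of IgG and so let macrophages take up antibody-coated particles. The activating receptors signal through the ITAM motif of a shared adaptor, the Fc receptor gamma chain, which recruits the kinase Syk, while the inhibitory receptor carries an ITIM motif that recruits the phosphatase SHIP-1. Several C-type lectins that bind fungal and mycobacterial sugars use the same adaptor or a Syk-binding motif of their own, and converge on CARD9, BCL10 and MALT1.

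Smarca4 itself was the check of the knockdown. With vehicle its normalized count was 365, 358 and 340.2 in Brg1 siRNA libraries and 1476, 1538 and 1626 in control siRNA libraries. It was 621, 559.5 and 600.1 in Brg1 siRNA and 2989.8, 2899 and 2751 in control siRNA with LPS, and 459.8, 414, 442 and 518 in Brg1 siRNA and 2032, 1745, 1905 and 2181 in control siRNA with Dex+LPS. Every Brg1 siRNA library lay below every control siRNA library. These are log2 fold changes of -2.12, -2.28 and -2.10 in vehicle, LPS and Dex+LPS (limma, adjusted p = 1.5e-11, 3.76e-12 and 1.31e-12). Depth was 13.69 to 18.71 M reads per library, and every comparison between genes' levels below is per kb of transcript. Library numbers in the labels fall into a run of 16 libraries and a separate run of 4, 1 in each LPS and Dex+LPS group and none in vehicle. The labels do not say what separates the runs. All 10 macrophage markers listed were present, Csf1r at 20819.8 to 29420 and Adgre1 at 27077 to 74712 normalized counts. Of the markers of other cells, Ly6g reached 2.03, Ms4a2 1.16, Cd3g 1.11 and Cd79a 2.14 normalized counts, and each was at 0 in at least 1 library. Other genes on those lists were not near 0 throughout: Kdr had 93.0 to 1603 normalized counts, Ighm 0.923 to 677, S100a8 19.2 to 459 and Kit 0 to 167. S100a9 had 25.9 to 98.3, Ngp 17.6 to 67.3 and Klrb1c 0.782 to 18.2. Of the dendritic cell markers, Zbtb46 had 0 to 27.1 and Ccr7 2.72 to 21.4.

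The genes include 2 groups of neighbours. On chromosome 1 (GRCm38, GENCODE M21 annotation), Fcgr2b (chr1:170958617-170976547, minus strand) lies 42.4 kb from Fcgr4 (chr1:171018920-171029761, plus strand), and Fcgr4 lies 21.4 kb from Fcgr3 (chr1:171051174-171064935, minus strand), with no other protein-coding gene between them. Fcer1g (chr1:171229572-171234365, minus strand) follows 165 kb beyond Fcgr3, with 7 coding genes between. On chromosome 6, Clec4n (chr6:123229843-123247021, plus strand), Clec4d (chr6:123262111-123275265, plus strand) and Clec4e (chr6:123281789-123289870, minus strand) are adjacent, with gaps of 15.1 and 6.52 kb. Clec7a (chr6:129461591-129472779, minus strand, annotated as a polymorphic pseudogene in that release), Fcgr1 (chr3:96282909-96293969, minus strand) and Mrc1 (chr2:14229392-14332057, plus strand) stand apart. Of the 31-base words in its transcripts, Fcgr3 shares 13.4% with Fcgr2b, and Fcgr2b shares 5.78% with other genes, Fcgr3 among them. The division of reads between these transcripts is therefore uncertain, and for no other member was the shared portion above 1.96%.

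RefSeq promoter windows were found for 9 of the 10 genes, all but Clec4n. Below are the 250 bases before the RefSeq start, on the gene's own strand, of 4 genes. Their levels moved in different ways with LPS, Dex or Brg1 siRNA. The windows of Fcgr2b and Fcgr3 lie inside the gene spans given above, downstream of the outermost GENCODE start. Capitals mark matches to the motifs searched.
Fcgr1 (GRCm38.p6, chr3:96293970-96294219, minus strand): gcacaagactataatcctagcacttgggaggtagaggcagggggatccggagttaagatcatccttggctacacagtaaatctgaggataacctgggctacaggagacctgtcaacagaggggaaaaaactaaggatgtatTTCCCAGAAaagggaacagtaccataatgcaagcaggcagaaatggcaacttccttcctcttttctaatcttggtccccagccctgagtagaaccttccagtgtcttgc
Fcgr2b (GRCm38.p6, chr1:170976072-170976321, minus strand): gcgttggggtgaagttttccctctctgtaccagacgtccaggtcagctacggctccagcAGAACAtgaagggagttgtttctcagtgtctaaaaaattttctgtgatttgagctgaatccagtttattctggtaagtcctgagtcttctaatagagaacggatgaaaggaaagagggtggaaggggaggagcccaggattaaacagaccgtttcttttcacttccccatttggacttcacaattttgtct
Fcgr4 (GRCm38.p6, chr1:171018676-171018925, plus strand): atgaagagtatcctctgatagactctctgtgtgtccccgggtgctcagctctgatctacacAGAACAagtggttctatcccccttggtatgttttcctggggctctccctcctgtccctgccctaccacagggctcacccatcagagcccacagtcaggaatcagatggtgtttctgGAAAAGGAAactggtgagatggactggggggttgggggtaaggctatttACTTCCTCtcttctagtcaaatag
Clec4e (GRCm38.p6, chr6:123289872-123290121, minus strand): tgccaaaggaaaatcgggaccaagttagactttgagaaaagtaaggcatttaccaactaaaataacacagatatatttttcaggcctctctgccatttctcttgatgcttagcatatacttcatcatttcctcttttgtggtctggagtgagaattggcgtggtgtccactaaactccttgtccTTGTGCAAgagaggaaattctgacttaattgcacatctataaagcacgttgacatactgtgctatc

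The motifs, searched on both strands, were NF-kappaB (GGANNTTCC, in 3.59% of 32851 RefSeq windows of that length), interferon regulatory factors (GAAANNGAA, 7.13%), the gamma-activated site of STAT factors (TTCNNNGAA, 7.02%), AP-1 (TGANTCA, 6.75%), C/EBP (TTNNGCAA, 9.56%), PU.1 (GAGGAAGT, 2.44%) and the repeat unit of the glucocorticoid receptor element (AGAACA, 16.1%). No member window held the same letters in 2 of these motifs. Fcgr1 held a gamma-activated site that began at position -109, counted from the first transcribed base. Fcgr4 held an interferon regulatory factor match at -73, a PU.1 match on the minus strand at -24 and AGAACA at -189. In Fcgr2b AGAACA stood at -191. Clec4e held a C/EBP match at -66. Of the windows not shown, Fcgr3 held a C/EBP match (TTAAGCAA) at -28 and Clec4d AGAACA on its minus strand at -234, and those of Fcer1g, Clec7a and Mrc1 held none of these letters. These are matches of letters, and binding was not measured.

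With vehicle, 7 of the 10 genes were higher and 1 was lower in Brg1 siRNA than in control siRNA at an adjusted p under 0.05, where 9.39% of all genes were higher and 10.8% lower. With LPS, 4 were higher and 1 lower (17.3% and 15.8% of all genes). With Dex+LPS, 6 were higher and 1 lower (19.0% and 15.3%). The lower gene was Mrc1 each time. Fcgr3, Clec4d and Clec7a were called higher in all 3 treatments. The calls of Fcgr3 with LPS and of Clec4d and Clec7a with vehicle were lost when certain single libraries were left out, as given below. The members' median log2 fold change was 0.38 in vehicle, 0.25 in LPS and 0.40 in Dex+LPS, beside medians over all genes of 0.0050, 0.0084 and 0.0087.

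Summed macrophage markers moved the same way. The 10 markers, 1 of which is Fcgr1, summed to 404911 to 414536 normalized counts in Brg1 siRNA and 307077 to 317564 in control siRNA with vehicle. With LPS they summed to 521339 to 535425 in Brg1 siRNA and 326340 to 345213 in control siRNA, and with Dex+LPS to 447014 to 457324 in Brg1 siRNA and 330248 to 366926 in control siRNA. The part of this shift in the knockdown results was not tested. B cell markers, 4 of 8 measured, went the other way in every treatment. Their sum with vehicle, mostly Ighm, was 53.2 to 70.8 in Brg1 siRNA and 629.8 to 703 in control siRNA. It was 11.2 to 22.7 in Brg1 siRNA and 71.0 to 109 in control siRNA with LPS. With Dex+LPS it was 3.69 to 10.3 in Brg1 siRNA and 94.6 to 149 in control siRNA. Fibroblast and endothelial markers, 6 of 8 measured and mostly Kdr, summed to 617 to 702 in Brg1 siRNA and 313 to 357 in control siRNA with vehicle, 1122 to 1360.2 in Brg1 siRNA and 1417 to 1618 in control siRNA with LPS, and 174 to 202 in Brg1 siRNA and 100.5 to 201 in control siRNA with Dex+LPS. Neutrophil markers, 8 of 9 measured, overlapped with vehicle, at 96.2 to 124 in Brg1 siRNA and 67.8 to 101 in control siRNA. They summed to 305 to 315 in Brg1 siRNA and 255 to 299.6 in control siRNA with LPS. With Dex+LPS they summed to 512 to 571 in Brg1 siRNA and 353 to 492 in control siRNA. Mast cell and basophil markers, 3 of 8 measured and mostly Kit, summed to 139 to 167 in Brg1 siRNA and 68.5 to 87.9 in control siRNA with LPS. They overlapped with vehicle, at 112 to 127 in Brg1 siRNA and 97.1 to 147 in control siRNA. With Dex+LPS they summed to 11.4 to 54.6 in Brg1 siRNA and 0 to 8.55 in control siRNA. NK and T cell markers, 3 of 9 measured, overlapped with vehicle, at 0.797 to 5.97 in Brg1 siRNA and 4.37 to 9.21 in control siRNA. They summed to 7.48 to 13.7 in Brg1 siRNA and 1.16 to 3.38 in control siRNA with LPS. With Dex+LPS they summed to 7.80 to 18.2 in Brg1 siRNA and 4.07 to 6.89 in control siRNA. Dendritic cell markers, all 8 measured, overlapped in every treatment and reached at most 43.2 in Brg1 siRNA and 56.4 in control siRNA. The part of these sums in the knockdown results was not tested. In bulk RNA, fewer cells of a type and less RNA per cell cannot be told apart.

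**Figure D1:**
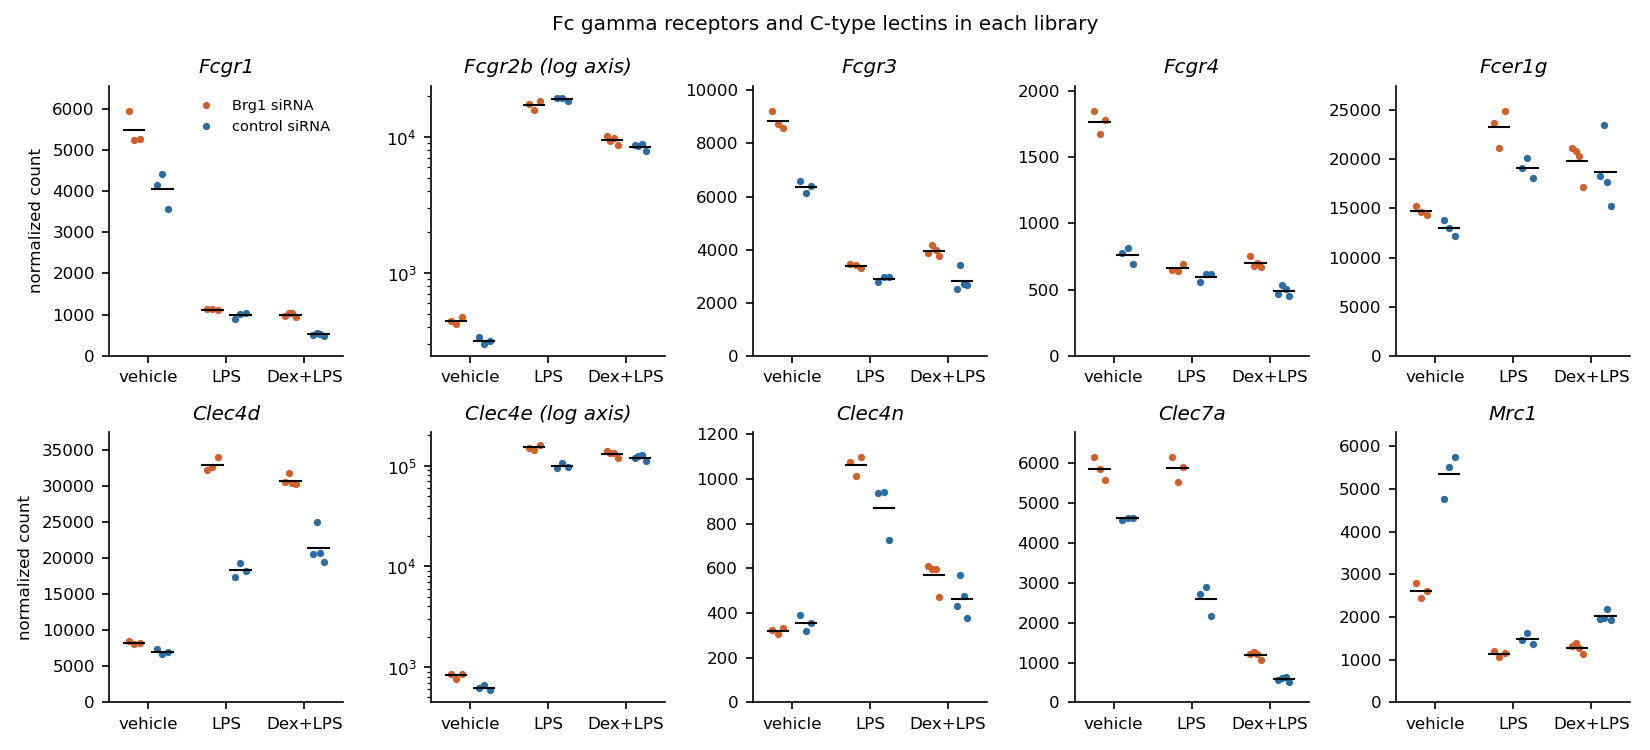
Normalized count of each of the 10 genes in every library, with Brg1 siRNA left of control siRNA under each treatment. Points are libraries and lines group means (n = 3, 3 and 4), and the axes of Fcgr2b and Clec4e are logarithmic. Mrc1 is the gene whose Brg1 siRNA libraries lay below the control siRNA libraries in all 3 treatments.

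Fcgr1, the high-affinity IgG receptor (CD64), was highest with vehicle and lost most of its transcript with LPS. With vehicle it had 5951, 5247 and 5254 normalized counts in Brg1 siRNA libraries, against 4156, 4404 and 3573 in control siRNA libraries. With LPS it had 1131, 1135 and 1107 in Brg1 siRNA and 894, 1026 and 1036 in control siRNA, and with Dex+LPS 975, 1030.2, 1050.4 and 942 in Brg1 siRNA and 517, 562, 534 and 478 in control siRNA. The siRNA groups did not overlap in any treatment, and their distance was widest, relative to level, with Dex+LPS. The log2 fold change of the knockdown was 0.44 ± 0.083 (SE) in vehicle, 0.19 ± 0.083 in LPS and 0.93 ± 0.072 in Dex+LPS (limma, adjusted p = 0.000778, 0.0847 and 1.69e-08). LPS lowered it 4.87-fold with Brg1 siRNA and 4.09-fold with control siRNA, log2 changes of -2.28 and -2.03 (limma, adjusted p = 2.25e-14 and 1.32e-13). Dex added to LPS gave -0.17 with Brg1 siRNA (adjusted p = 0.083, and 0.0397 with the compared groups fitted alone) and -0.91 with control siRNA (adjusted p = 1.97e-08, both limma). On plain library totals the Dex response with Brg1 siRNA was 0.16 instead (limma, adjusted p = 0.0793). The interaction, the knockdown effect in Dex+LPS minus that in LPS, was 0.74 ± 0.11 (limma, adjusted p = 0.000686).

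Fcgr3, the low-affinity activating receptor (CD16), was higher in Brg1 siRNA than in control siRNA in each treatment. In vehicle it had 9238, 8725 and 8583 normalized counts in Brg1 siRNA and 6574, 6149 and 6395 in control siRNA. With LPS the values were 3469.8, 3409 and 3302 in Brg1 siRNA and 2791, 2972 and 2957 in control siRNA, and with Dex+LPS 3884, 4171, 3979 and 3774 in Brg1 siRNA and 2521, 3406, 2693 and 2667 in control siRNA. No groups overlapped, although replicate 2 of control siRNA with Dex+LPS, at 3406, came near the Brg1 siRNA libraries. The knockdown log2 fold changes were 0.47 ± 0.081 (SE) in vehicle, 0.22 ± 0.081 in LPS and 0.49 ± 0.070 in Dex+LPS (limma, adjusted p = 0.000313, 0.0407 and 2.3e-05). The call in LPS was lost when any single LPS library was left out (adjusted p 0.0594 to 0.131). It was also lost with edgeR on recovered reads, TMM factors, no filter on low values, plain library totals or the smaller run of libraries left out (adjusted p 0.0584 to 0.427). LPS lowered Fcgr3 with both siRNAs, by log2 changes of -1.38 with Brg1 siRNA and -1.13 with control siRNA (limma, adjusted p = 2.4e-11 and 4.53e-10).

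Fcgr4, the activating receptor that binds IgG2a and IgG2b in mice, had the largest knockdown effect of the 10 genes with vehicle. It had 1853, 1677 and 1778 normalized counts in Brg1 siRNA with vehicle, against 777, 818 and 692 in control siRNA. With LPS the levels were 651, 638 and 696 in Brg1 siRNA and 557, 620.1 and 616 in control siRNA, and with Dex+LPS 752, 678, 699.9 and 671 in Brg1 siRNA and 468, 539, 503 and 451 in control siRNA. The siRNA groups were apart in every treatment, most widely with vehicle. The knockdown effect was 2.32-fold in vehicle, 1.22 ± 0.080 (SE) on the log2 scale, and 0.15 ± 0.080 in LPS and 0.52 ± 0.069 in Dex+LPS (limma, adjusted p = 7.18e-09, 0.174 and 1.31e-05). The interaction of LPS against vehicle was -1.07 ± 0.11 (limma, adjusted p = 5.23e-06). LPS lowered Fcgr4 with both siRNAs, by log2 changes of -1.42 with Brg1 siRNA and -0.35 with control siRNA (limma, adjusted p = 1.44e-11 and 0.000754).

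Fcer1g, the gamma chain that the activating receptors and several lectins need, was abundant in every group, and no knockdown difference passed the threshold. Vehicle libraries had 15291, 14624 and 14283 normalized counts in Brg1 siRNA and 13773, 12965 and 12154 in control siRNA. Under LPS it had 23724, 21176 and 24955 in Brg1 siRNA and 19072, 20161 and 18056 in control siRNA, and with Dex+LPS 21172, 20801, 20324 and 17180.3 in Brg1 siRNA and 18264, 23522, 17723 and 15267 in control siRNA. The groups overlapped with Dex+LPS and were apart by little otherwise. The knockdown log2 differences were 0.19 ± 0.12 (SE), 0.28 ± 0.12 and 0.10 ± 0.10 in vehicle, LPS and Dex+LPS (limma, adjusted p = 0.304, 0.0684 and 0.474). The call in LPS depended on the setting: it passed the threshold with DESeq2 (adjusted p = 0.0486), with the run of library numbers as a covariate (adjusted p = 0.0123), without the smaller run (adjusted p = 0.0419), with the compared groups fitted alone (adjusted p = 0.0327) and without replicate 2 of Brg1 siRNA with LPS (0.35, limma, adjusted p = 0.0480). The value in Dex+LPS passed it without replicate 2 of control siRNA with Dex+LPS (0.22, limma, adjusted p = 0.0458). LPS raised Fcer1g by 0.66 with Brg1 siRNA and 0.56 with control siRNA on the log2 scale (limma, adjusted p = 5.62e-05 and 0.000295), but on plain library totals these values were -0.023 in Brg1 siRNA and -0.022 in control siRNA.

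Fcgr2b, the inhibitory receptor, was the least abundant of the 10 genes per kb with vehicle and among the most LPS-responsive. The vehicle libraries held 442, 425 and 472 normalized counts in Brg1 siRNA and 336, 302 and 315 in control siRNA. LPS libraries had 17497, 15720.2 and 18343 in Brg1 siRNA and 19200.4, 19177 and 18396 in control siRNA, and with Dex+LPS 10069, 9334, 9804 and 8689 in Brg1 siRNA and 8647, 8514, 8796 and 7926 in control siRNA. Brg1 siRNA libraries were the higher ones with vehicle and, by a small margin, the lower ones with LPS, and the groups overlapped with Dex+LPS. The knockdown log2 fold changes were 0.49 ± 0.068 (SE), -0.14 ± 0.068 and 0.16 ± 0.059 in vehicle, LPS and Dex+LPS (limma, adjusted p = 3.85e-05, 0.121 and 0.0426). With LPS, Fcgr2b was called lower in Brg1 siRNA with the run of library numbers as a covariate (-0.14, limma, adjusted p = 0.0301) and on plain library totals (-0.28, limma, adjusted p = 0.00119). The call in Dex+LPS was lost when replicate 1, 2 or 4 of control siRNA or replicate 1, 2 or 3 of Brg1 siRNA was left out (adjusted p 0.0533 to 0.13), and with edgeR, TMM factors, no filter on low values, plain library totals or the compared groups alone (adjusted p 0.0646 to 0.421). LPS raised Fcgr2b 38.4-fold with Brg1 siRNA and 59.5-fold with control siRNA, log2 changes of 5.26 ± 0.068 and 5.89 ± 0.068 (limma, adjusted p = 6.01e-21 and 1.36e-21), and the interaction was -0.63 ± 0.096 (limma, adjusted p = 0.000237). Dex added to LPS lowered it with both siRNAs, by log2 changes of -0.86 with Brg1 siRNA and -1.16 with control siRNA (limma, adjusted p = 3.88e-09 and 4.2e-11).

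The balance of activating to inhibitory receptor transcripts was followed as the sum of Fcgr1, Fcgr3 and Fcgr4 over Fcgr2b, each per kb of its longest transcript. With vehicle this ratio was 85.2, 82.1 and 73.7 in Brg1 siRNA and 75.0, 81.1 and 75.2 in control siRNA, and the groups overlapped. With LPS it was 0.715, 0.784 and 0.663 in Brg1 siRNA and 0.528, 0.572 and 0.595 in control siRNA, and with Dex+LPS 1.36, 1.53, 1.42 and 1.51 in Brg1 siRNA and 1.00, 1.32, 1.05 and 1.13 in control siRNA. The ratio was below 1 in every LPS library and above 1 in every Dex+LPS library, and the Brg1 siRNA libraries stood above the control siRNA libraries under both LPS treatments. Group means were 80.3 ± 5.96 in Brg1 siRNA and 77.1 ± 3.42 in control siRNA with vehicle, 0.721 ± 0.061 in Brg1 siRNA and 0.565 ± 0.034 in control siRNA with LPS (SD, n = 3 each), and 1.45 ± 0.081 in Brg1 siRNA and 1.13 ± 0.14 in control siRNA with Dex+LPS (SD, n = 4 each). The ratio carries no test, and its level depends on the transcript lengths chosen and on how reads were split between Fcgr2b and Fcgr3.

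**Figure D2:**
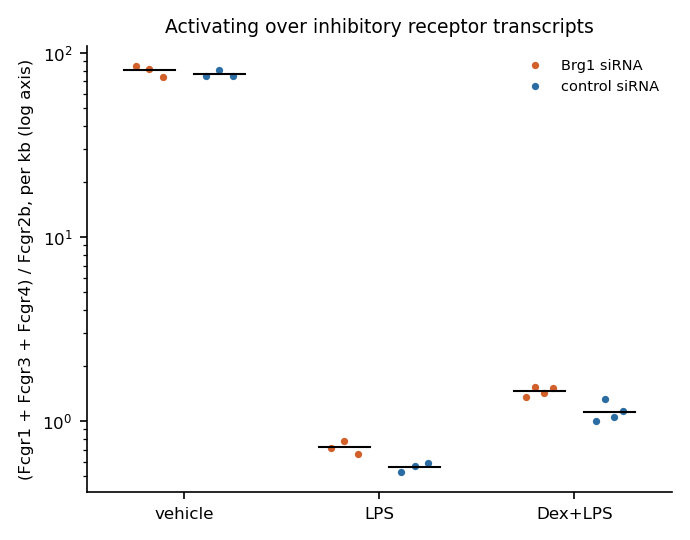
Ratio of activating (Fcgr1, Fcgr3 and Fcgr4) to inhibitory (Fcgr2b) receptor transcripts per kb, on a logarithmic axis, in each library. Points are libraries and lines group means. The ratio lay between 73.7 and 85.2 with vehicle and between 0.528 and 1.53 with LPS or Dex+LPS.

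Of the lectins that signal through the gamma chain, Clec4d (MCL) and Clec4e (Mincle, a receptor for the mycobacterial glycolipid trehalose dimycolate) rose with LPS with both siRNAs. Clec4d with vehicle had 8570.0, 8101 and 8197 normalized counts in Brg1 siRNA and 7343, 6701 and 6923 in control siRNA. In LPS it had 32192, 32659 and 33996 in Brg1 siRNA and 17402, 19377 and 18156 in control siRNA, and with Dex+LPS 30596, 31724, 30357 and 30269 in Brg1 siRNA and 20509, 24966, 20761 and 19491 in control siRNA. All groups were apart, most clearly with LPS. Its knockdown log2 fold changes were 0.25 ± 0.071 (SE), 0.85 ± 0.071 and 0.53 ± 0.062 in vehicle, LPS and Dex+LPS (limma, adjusted p = 0.0187, 6.78e-08 and 2.72e-06). The call in vehicle was lost without replicate 2 or 3 of control siRNA or replicate 1 of Brg1 siRNA (adjusted p 0.0557 to 0.0818). LPS raised Clec4d by 1.99 with Brg1 siRNA and 1.39 with control siRNA on the log2 scale, and the interaction was 0.60 ± 0.10 (limma, adjusted p = 1.7e-14, 3.75e-12 and 0.000575).

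Clec4e had 860.3, 763 and 860.3 normalized counts in Brg1 siRNA with vehicle and 619, 664 and 589.8 in control siRNA. The LPS libraries held 150937, 142893 and 160881 in Brg1 siRNA and 94513, 106789.8 and 96112 in control siRNA. With Dex+LPS it had 139065, 134587, 132111 and 117777 in Brg1 siRNA and 117979, 123210.4, 127536 and 110758 in control siRNA, and only here did the groups overlap. LPS raised it 183-fold with Brg1 siRNA and 159-fold with control siRNA, the largest LPS change of the 10 genes with either siRNA (log2 7.52 ± 0.076 and 7.31 ± 0.076, limma, adjusted p = 2.73e-22 and 4.14e-22). Brg1 siRNA libraries were higher with vehicle and LPS, by 0.41 ± 0.076 and 0.61 ± 0.076 on the log2 scale (limma, adjusted p = 0.000766 and 6.96e-06), and the difference with Dex+LPS was 0.13 ± 0.066 (adjusted p = 0.155, and 0.0469 with a difference of 0.18 without replicate 4 of Brg1 siRNA). Dex added to LPS changed Clec4e by -0.21 with Brg1 siRNA and 0.27 with control siRNA (limma, adjusted p = 0.0216 and 0.00391), and the interaction was -0.49 ± 0.10 (limma, adjusted p = 0.009). On plain library totals the Dex response with Brg1 siRNA was 0.12 instead, and its call was also lost without replicate 1 or 3 of Brg1 siRNA with LPS or replicate 4 of Brg1 siRNA with Dex+LPS (adjusted p 0.0525 to 0.108).

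Clec4n (Dectin-2, a receptor for fungal mannans) had no knockdown difference past the threshold in the fit reported, but several other settings called it higher in Brg1 siRNA with LPS or Dex+LPS. Under vehicle it had 324, 307 and 333 normalized counts in Brg1 siRNA and 393, 322 and 356 in control siRNA. With LPS it reached 1077, 1014 and 1098 in Brg1 siRNA and 937, 943 and 727 in control siRNA, and with Dex+LPS 611, 598, 598 and 472 in Brg1 siRNA and 430.4, 569.6, 474 and 378 in control siRNA. The groups overlapped with vehicle and with Dex+LPS. The log2 differences were -0.15 ± 0.14 (SE), 0.30 ± 0.14 and 0.31 ± 0.12 (limma, adjusted p = 0.523, 0.101 and 0.0519). Without replicate 2 of control siRNA the last was 0.41 (adjusted p = 0.00798), and without replicate 4 of Brg1 siRNA it was 0.39 (adjusted p = 0.0151). The Dex+LPS difference also passed with a filter of 50 in 3 libraries (adjusted p = 0.0475), DESeq2 (adjusted p = 0.0427), the run of library numbers as a covariate (adjusted p = 0.00595) and the smaller run left out (adjusted p = 0.0247), and the LPS difference passed with that covariate (adjusted p = 0.0172). Clec4n rose with LPS by 1.72 with Brg1 siRNA and 1.28 with control siRNA, and changed by -0.91 with each siRNA when Dex was added (log2, limma, adjusted p = 1.91e-09, 1.23e-07, 1.29e-05 and 9.84e-06).

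Clec7a (Dectin-1, the beta-glucan receptor, which carries its own Syk-binding motif) had the largest knockdown effect of the 10 genes with LPS and with Dex+LPS. With vehicle it stood at 6145, 5859.7 and 5584 normalized counts in Brg1 siRNA and 4580.0, 4636 and 4631 in control siRNA. Under LPS it held 6153, 5532 and 5915 in Brg1 siRNA and 2722, 2890.0 and 2163 in control siRNA, and with Dex+LPS 1223, 1262, 1203 and 1075 in Brg1 siRNA and 570.0, 601, 635 and 517 in control siRNA. The groups were apart in all 3 treatments, and the Brg1 siRNA libraries with LPS overlapped those with vehicle. The knockdown log2 fold changes were 0.34 ± 0.094 (SE), 1.19 ± 0.094 and 1.04 ± 0.081 in vehicle, LPS and Dex+LPS (limma, adjusted p = 0.0132, 3.33e-08 and 2.04e-08). The call in vehicle was lost without replicate 1 of Brg1 siRNA (0.31, limma, adjusted p = 0.0608). The LPS change was 0.00 ± 0.094 with Brg1 siRNA (adjusted p = 0.997) and -0.84 ± 0.094 with control siRNA (adjusted p = 2.18e-07), and the interaction was 0.84 ± 0.13 (limma, adjusted p = 0.000318). On plain library totals, which moved the median of all genes by -0.67 for that response, the LPS change with Brg1 siRNA was -0.68. Dex added to LPS lowered Clec7a with both siRNAs, by log2 changes of -2.30 with Brg1 siRNA and -2.15 with control siRNA (limma, adjusted p = 5.33e-13 and 6.77e-13), the largest Dex change among the 10 genes.

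Mrc1, the mannose receptor (CD206), an endocytic receptor used as a marker of alternatively activated macrophages, was called lower in Brg1 siRNA in every treatment. Vehicle levels were 2787, 2439 and 2612 normalized counts in Brg1 siRNA and 4757, 5522 and 5748 in control siRNA. After LPS it had 1203, 1060.5 and 1149 in Brg1 siRNA and 1469, 1622 and 1358 in control siRNA, and with Dex+LPS 1328, 1390.3, 1279 and 1136 in Brg1 siRNA and 1955, 1974, 2191 and 1935 in control siRNA. Every Brg1 siRNA library lay below every control siRNA library of its treatment. The knockdown log2 fold changes were -1.03 ± 0.090 (SE), -0.38 ± 0.090 and -0.65 ± 0.078 in vehicle, LPS and Dex+LPS (limma, adjusted p = 2.09e-07, 0.00312 and 3.44e-06). LPS lowered Mrc1 less with Brg1 siRNA than with control siRNA, by log2 changes of -1.20 and -1.85, and the interaction was 0.65 ± 0.13 (limma, adjusted p = 9.31e-10, 1.73e-12 and 0.00207). Dex added to LPS gave 0.17 with Brg1 siRNA (adjusted p = 0.107) and 0.44 with control siRNA (adjusted p = 0.000268, both limma), and the difference between these was not past the threshold (-0.27, adjusted p = 0.26). Without replicate 4 of Brg1 siRNA with Dex+LPS the Dex change with Brg1 siRNA was 0.23 (limma, adjusted p = 0.0336), and on plain library totals it was 0.50 (limma, adjusted p = 3.32e-05).

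**Figure D3:**
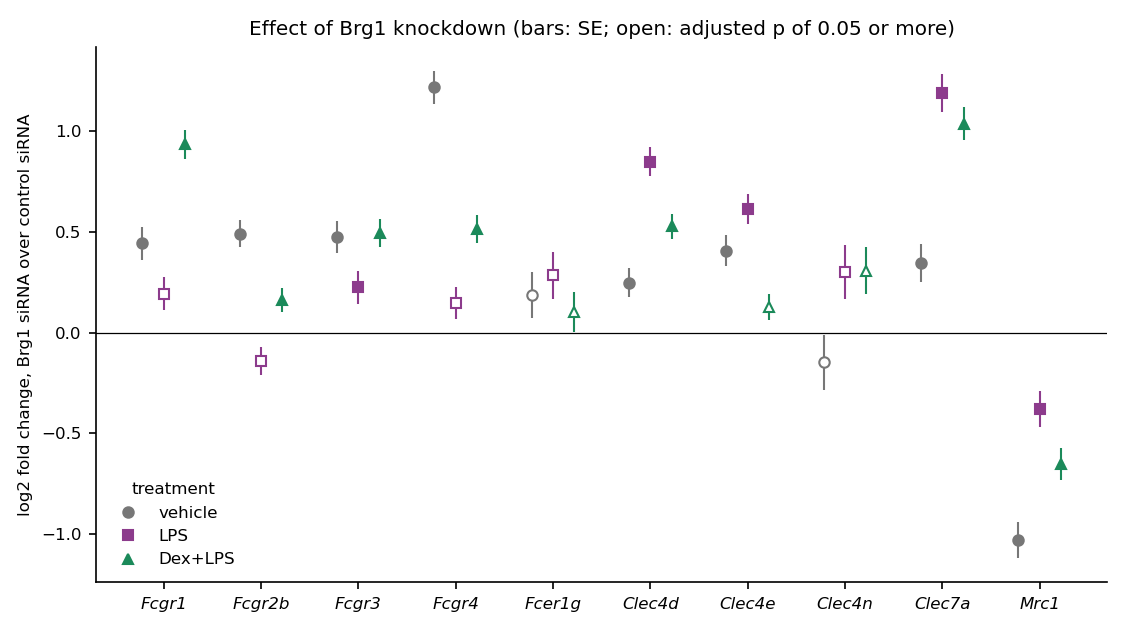
Log2 fold change of Brg1 siRNA over control siRNA for each gene in vehicle, LPS and Dex+LPS. Symbols are limma estimates, bars are standard errors, and open symbols have an adjusted p of 0.05 or more. Fcgr4 stood highest in vehicle at 1.22, Clec7a in LPS and Dex+LPS at 1.19 and 1.04, and Mrc1 lowest throughout.

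Within the runs of library numbers the knockdown effects of the called genes kept their sign. In LPS this held for 5 of 5 genes in the larger run (2 libraries per siRNA), with shifts from the pooled value of at most 0.083 on the log2 scale, and for 5 of 5 in the smaller run (1 library per siRNA), with shifts of at most 0.17. In Dex+LPS it held for 7 of 7 genes in each run, with shifts of at most 0.039 and 0.12. The vehicle groups hold libraries of the larger run alone. Where the siRNA groups do not overlap, any subset of libraries keeps the sign. This was so for every called gene except Fcgr2b with Dex+LPS, so the kept signs are no separate check for those genes.

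LPS moved nearly all of the 10 genes. With Brg1 siRNA 5 were higher and 4 lower than with vehicle, where 35.4% of all genes were higher and 37.4% lower. With control siRNA 5 were higher and 5 lower, where 36.0% of all genes were higher and 37.0% lower. Fcgr2b, Fcer1g, Clec4d, Clec4e and Clec4n were the higher genes with both siRNAs (Fcer1g not on plain library totals, as given above), and Fcgr1, Fcgr3, Fcgr4 and Mrc1 lower ones with both. The inhibitory receptor moved opposite to the 3 activating receptors.

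Fewer of the listed genes changed when Dex was added to LPS than with LPS itself, and the shares of all genes called fell as well. With Brg1 siRNA 1 gene (Fcgr3) was higher and 4 were lower, where 21.3% of all genes were higher and 23.0% lower. With control siRNA 3 (Clec4d, Clec4e and Mrc1) were higher and 5 lower, where 23.4% of all genes were higher and 25.2% lower. Both directions together, the part of the list called was near that of all genes with Brg1 siRNA and above it with control siRNA. Fcgr2b, Clec4n and Clec7a were lower with both siRNAs. Fcgr3 rose by 0.22 with Brg1 siRNA (limma, adjusted p = 0.0248), a call lost without replicate 2 or 3 of Brg1 siRNA with LPS or replicate 2 of Brg1 siRNA with Dex+LPS (adjusted p 0.0534 to 0.0822) or without the smaller run (adjusted p = 0.0567), and its value with control siRNA was -0.05 (adjusted p = 0.599, and -0.15 with an adjusted p of 0.0168 without replicate 2 of control siRNA with Dex+LPS). Fcgr4 gave 0.08 with Brg1 siRNA (limma, adjusted p = 0.404, and 0.41 with an adjusted p of 6.77e-05 on plain library totals) and -0.29 with control siRNA (limma, adjusted p = 0.00392), and the value with control siRNA was 0.011 on plain library totals and missed the threshold without the smaller run of libraries (adjusted p = 0.0513). Clec4d gave -0.10 with Brg1 siRNA (limma, adjusted p = 0.239), which was 0.23 on plain library totals, and 0.22 with control siRNA (limma, adjusted p = 0.0102), a call lost without replicate 1 of control siRNA with LPS (adjusted p = 0.0577) and with the compared groups fitted alone (adjusted p = 0.106). Fcer1g with Brg1 siRNA was called lower with the run of library numbers as a covariate (-0.25, limma, adjusted p = 0.0134).

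Dex+LPS against vehicle left 5 genes higher and 5 lower with each siRNA. On plain library totals Fcer1g with Brg1 siRNA (0.079, limma, adjusted p = 0.480) and Clec4n with control siRNA (0.081, limma, adjusted p = 0.562) no longer passed. Of all genes, 33.3% were higher and 34.1% lower with Brg1 siRNA, and 32.6% were higher and 33.2% lower with control siRNA. Clec7a fell to 1075 to 1262 normalized counts in Brg1 siRNA with Dex+LPS, against 5584 to 6145 with vehicle, and to 517 to 635 in control siRNA with Dex+LPS, against 4580.0 to 4636 with vehicle (log2 changes of -2.30 and -2.99, limma, adjusted p = 4.79e-14 and 9.29e-16). Fcgr1 changed by -2.45 with Brg1 siRNA and -2.95 with control siRNA (limma, adjusted p = 3.01e-15 and 2.04e-16).

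The scale of the counts bears on these directions. On plain library totals in place of the deposited scale, the median of all genes moved by -0.67 for the LPS response with Brg1 siRNA and -0.57 with control siRNA, by 0.32 and 0.29 for the Dex responses, by -0.34 and -0.28 for Dex+LPS against vehicle, and, for Brg1 siRNA against control siRNA, by -0.03 under vehicle, -0.13 under LPS and -0.10 under Dex+LPS. The share of called genes that were higher then was 31.4% in place of 52.3% for the knockdown in LPS and 36.7% in place of 55.4% in Dex+LPS. For the LPS response it was 23.2% in place of 48.7% with Brg1 siRNA and 26.2% in place of 49.3% with control siRNA, for the Dex response 81.4% in place of 48.1% and 76.2% in place of 48.2%, and for Dex+LPS against vehicle 30.7% in place of 49.5% and 32.9% in place of 49.5%. On that scale no called knockdown effect of the 10 genes changed sign, and of the uncalled ones Fcer1g with Dex+LPS did (log2 -0.0030, limma, adjusted p = 0.987).

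**Figure D4:**
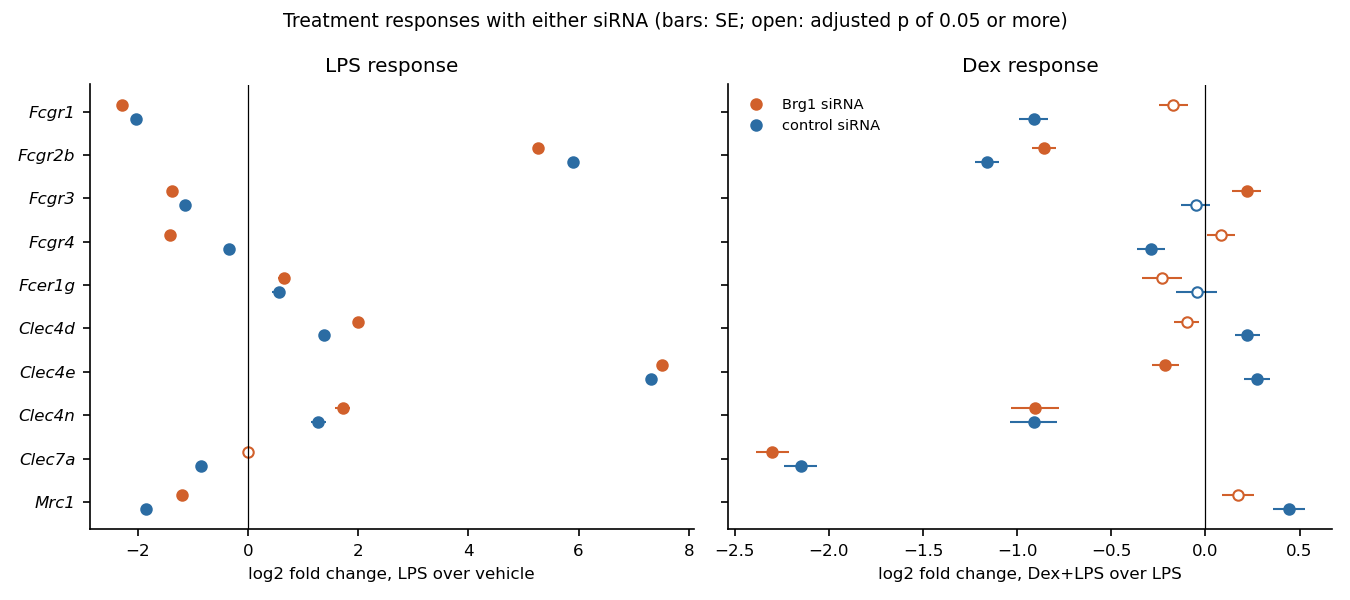
Log2 fold changes of LPS over vehicle (left) and of Dex+LPS over LPS (right) for each gene, with Brg1 siRNA drawn above control siRNA. Symbols are limma estimates, bars are standard errors, and open symbols have an adjusted p of 0.05 or more. In the LPS panel Clec7a stands at 0.00 with Brg1 siRNA (-0.68 on plain library totals) and -0.84 with control siRNA. In the Dex panel Fcgr1 stands at -0.17 with Brg1 siRNA (0.16 on plain library totals) and -0.91 with control siRNA.

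Whether the knockdown effect itself differed between treatments was tested as an interaction. Between LPS and vehicle the difference was past the threshold and positive for 3 genes (Clec4d, Clec7a and Mrc1) and negative for 2 (Fcgr2b and Fcgr4), where 6.39% of all genes were positive and 5.05% negative. The share of positive ones among all genes called was 55.9%, and 38.1% on plain library totals. Between Dex+LPS and LPS it was positive for 1 (Fcgr1) and negative for 1 (Clec4e), where 2.75% of all genes were positive and 1.22% negative. Fcgr2b and Fcgr4 also passed, with positive values, on plain library totals, with DESeq2 and with the run of library numbers as a covariate (adjusted p 0.00873 to 0.0393), and Clec4d passed with a negative value with DESeq2 and with that covariate (adjusted p = 0.0155 and 0.0401). Between LPS and vehicle, Fcgr3 passed on plain library totals (-0.35, limma, adjusted p = 0.0444) and with the compared groups alone (-0.25, limma, adjusted p = 0.0199), and Clec4n with the covariate (0.45, limma, adjusted p = 0.0280). Mrc1 remained lower in Brg1 siRNA in both treatments of the LPS interaction, so its positive value describes a smaller deficit.

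Per kb of longest transcript, Fcer1g had the highest group mean of the 10 genes in all 6 groups. In vehicle it reached 21571 ± 751 normalized counts per kb in Brg1 siRNA and 18981 ± 1185 in control siRNA (SD, n = 3 each), followed in Brg1 siRNA by Fcgr3 (6569 ± 256) and Clec4d (6266 ± 187), which overlapped, and in control siRNA by Clec4d (5283 ± 246) and Fcgr3 (4731 ± 158), which did not. Clec4e and Fcgr2b took the last places with vehicle, at 172 ± 11.7 and 126 ± 6.81 in Brg1 siRNA. With LPS Clec4e came next to Fcer1g, at 31551 ± 1876 beside 34092 ± 2822 in Brg1 siRNA, where the libraries overlapped, and at 20637 ± 1389 beside 27960 ± 1542 in control siRNA, where they did not. Mrc1 was last with LPS, at 212 ± 13.4 in Brg1 siRNA and 276 ± 24.6 in control siRNA. This order depends on the transcript taken for each gene's length.

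Across the 20 libraries, Fcgr1 and Fcgr3 ran together on the log2 scale (Pearson r = 0.95), and both ran against Fcgr2b (r = -0.88 and -0.90). Clec4e followed Fcgr2b (r = 0.98) and Clec4d (r = 0.95). Among genes outside the 10, those with the profile nearest to each member included Fam111a for Fcgr1 (r = 0.99), Ccl3 and Cd40 for Fcgr2b (r = 1.00 each after rounding), Gyg for Fcgr3 (r = 0.99), Tmem140 for Fcgr4 (r = 0.94) and Fth1 for Fcer1g (r = 0.98). For the lectins they were Cd82 for Clec4d (r = 0.99), Rcsd1 for Clec4e (r = 1.00), Vopp1 for Clec4n (r = 0.98), Pea15a for Clec7a (r = 0.99) and Dlgap5 for Mrc1 (r = 0.98). The 20 libraries share 6 groups, so these values mostly describe group means.

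Downstream of the receptors, 25 genes of activating ITAM signalling were tested. In Brg1 siRNA against control siRNA, 5 were higher and 3 lower with vehicle (9.39% and 10.8% of all genes), 8 and 7 with LPS (17.3% and 15.8%), and 10 and 6 with Dex+LPS (19.0% and 15.3%), with median log2 fold changes of 0.00, 0 and 0.06. The lower genes with vehicle were 12.0% of the list, near the share of all genes. Lcp2, which encodes the adaptor SLP-76, had 1153 ± 103 normalized counts in Brg1 siRNA and 746 ± 38.3 in control siRNA with vehicle, and 23138 ± 1847 in Brg1 siRNA and 15821 ± 532 in control siRNA with LPS (SD, n = 3 each; log2 0.62 and 0.55, limma, adjusted p = 3.87e-06 and 9.7e-06). Syk, the kinase itself, had 6931 ± 122 in Brg1 siRNA and 5882 ± 307 in control siRNA with vehicle (SD, n = 3 each, limma, adjusted p = 0.00397). The kinase gene Tec was higher in Brg1 siRNA with LPS and Dex+LPS (log2 0.87 and 0.77, limma, adjusted p = 6.4e-07 and 3.56e-07), as was the adaptor gene Sh3bp2 with Dex+LPS (0.68, limma, adjusted p = 1.28e-08). On the lower side, Src changed by -0.69 with vehicle and -0.42 with Dex+LPS (limma, adjusted p = 3.16e-05 and 0.000585), and Malt1, of the CARD9 pathway, by -0.55 with vehicle (limma, adjusted p = 0.000777). Pik3cd, a phosphoinositide 3-kinase subunit, changed by -0.90 with LPS and -0.35 with Dex+LPS (limma, adjusted p = 1.37e-07 and 0.000703), and Vav1, an exchange factor for Rac, by -0.55 with LPS (limma, adjusted p = 1.51e-06). In vehicle the list held 5 called genes when replicate 3 of control siRNA was left out, and 15 (8 higher and 7 lower) with the compared groups fitted alone. LPS raised 15 of the 25 and lowered 5 with Brg1 siRNA (35.4% and 37.4% of all genes), and raised 17 and lowered 6 with control siRNA (36.0% and 37.0%). Added Dex raised 4 and lowered 15 with Brg1 siRNA (21.3% and 23.0% of all genes), and raised 4 and lowered 16 with control siRNA (23.4% and 25.2%).

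The list of inhibitory signalling held 19 tested genes of 20, of which 5 were higher and 3 lower in Brg1 siRNA with vehicle (9.39% and 10.8% of all genes), 9 and 3 with LPS (17.3% and 15.8%), and 8 and 3 with Dex+LPS (19.0% and 15.3%). The median log2 fold changes were 0.04, 0.12 and 0.18. The 3 lower genes were 15.8% of the list, near the share of all genes with LPS and Dex+LPS. Lair1, an inhibitory collagen receptor, was higher in all 3 treatments: 5499 ± 125 in Brg1 siRNA and 3325 ± 27.8 in control siRNA with vehicle, 2900.1 ± 134 in Brg1 siRNA and 769 ± 96.8 in control siRNA with LPS (SD, n = 3 each), and 3569.6 ± 180.5 in Brg1 siRNA and 1192 ± 69.4 in control siRNA with Dex+LPS (SD, n = 4 each). Its log2 fold changes were 0.73, 1.92 and 1.58 (limma, adjusted p = 1.61e-06, 5.91e-12 and 7.84e-12). Cd33, a sialic acid-binding lectin, had 445 ± 88.4 in Brg1 siRNA and 76.5 ± 8.05 in control siRNA with LPS (SD, n = 3 each, log2 2.51, limma, adjusted p = 9.55e-09). Pirb rose by 0.44 with vehicle and Cd300a by 1.27 with Dex+LPS (limma, adjusted p = 1.37e-05 and 7.66e-09). Siglece changed by -1.10 with vehicle and -0.79 with Dex+LPS (limma, adjusted p = 3.85e-05 and 0.00013), and Inpp5d, which encodes SHIP-1, the phosphatase Fcgr2b signals through, by -0.41 with LPS (limma, adjusted p = 0.00161).

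Of 34 other C-type lectins, 18 were tested, and 3 were higher and 5 lower in Brg1 siRNA with vehicle (9.39% and 10.8% of all genes), 9 and 2 with LPS (17.3% and 15.8%), and 9 and 3 with Dex+LPS (19.0% and 15.3%). Their median log2 fold changes were 0.00, 0.34 and 0.25. The lower genes were 11.1% of the list with LPS, below the share of all genes, and 16.7% with Dex+LPS, near it. Cd93 was higher in Brg1 siRNA in all 3 treatments (0.88, 1.36 and 1.07, limma, adjusted p = 2.69e-07, 7.95e-10 and 1.55e-09), as was Cd69, an early activation antigen (0.81, 0.90 and 1.22, limma, adjusted p = 4.66e-05, 8.11e-06 and 3.19e-08). Both Clec4a2 and Clec4b1 went the other way. Clec4a2, which also stands on the inhibitory list, changed by -0.72, -0.48 and -1.02 (limma, adjusted p = 0.000137, 0.00304 and 2.47e-07), and Clec4b1 by -1.45, -1.42 and -1.55 (limma, adjusted p = 7.57e-05, 5.53e-05 and 3.55e-06). Clec4b1 was low, at 58.7 ± 8.14 in Brg1 siRNA and 161 ± 7.89 in control siRNA with vehicle (SD, n = 3 each).

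Among 12 other Fc receptor and Fc-binding genes, 5 were tested, of which 0 were higher and 1 lower in Brg1 siRNA with vehicle (9.39% and 10.8% of all genes), 1 and 2 with LPS (17.3% and 15.8%), and 1 and 1 with Dex+LPS (19.0% and 15.3%). A single gene is 20.0% of these 5, so most of these counts lie near the share of all genes. With vehicle 1 was higher and 1 lower with the run of library numbers as a covariate or the smaller run left out, and with Dex+LPS 0 were higher and 1 lower with the compared groups alone. Fcrls changed by -1.62, -1.35 and -1.74 in vehicle, LPS and Dex+LPS (limma, adjusted p = 2e-05, 8.07e-05 and 7.33e-07), and Fcrl1 by -1.18 with LPS (limma, adjusted p = 3.54e-07). B2m, the partner chain of the neonatal Fc receptor and of MHC class I, rose by 0.43 with LPS and 0.32 with Dex+LPS (limma, adjusted p = 0.00275 and 0.00866). Ncf1, which encodes the organizer subunit of the phagocyte NADPH oxidase, the enzyme that these receptors can switch on, had 6954 ± 15.1 normalized counts in Brg1 siRNA and 5113 ± 99.4 in control siRNA with vehicle, and 26201 ± 341 in Brg1 siRNA and 15608 ± 566 in control siRNA with LPS (SD, n = 3 each). Its log2 fold changes were 0.44, 0.75 and 0.37 in vehicle, LPS and Dex+LPS (limma, adjusted p = 5.73e-07, 6.1e-10 and 3.07e-07).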

How the data were processed

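The 10 genes and the gene and marker lists were chosen with earlier results of these data known. Per the file headers, the authors deposited DESeq-normalized values, used here as a signal per gene and library, and per the submitters' processing notes their tools included DESeq2, DESeq, R 4.1.0 and Salmon 1.4.0, and the builds named are GRCm38.p6 and mm10. The deposited table also holds the authors' own log2 fold changes and p-values, which are not printed here. The signal divided by its smallest step gave whole reads (99.95% of values within 0.01 of a whole number, 100% within 0.1), and these gave the depth of each library. The strand counted is not given in the sources used here, and 1 line without a gene symbol was kept out of the named results.

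Signal values, called normalized counts, were tested as log2(value + 1) with limma-trend (limma 3.58.1, R 4.3.3), with all 20 libraries and 6 groups in a single fit. Genes with a value of at least 10 in at least 3 libraries were kept (12061), and p-values were adjusted over all of them by the Benjamini-Hochberg method at 0.05 in each of 11 comparisons. Because the values were not raw counts, limma took the place of the edgeR test planned for counts. The fit was tested on simulated data with fewer changed genes, and with larger changes than most knockdown effects of the 10 genes. That test therefore does not measure the error of the calls given here. Comparisons that share libraries are not independent of each other. Alternatives were a pseudocount of 0.5 or 10, other filters, plain library totals, TMM factors, edgeR 4.0.16 and DESeq2 1.42.0 on recovered reads, a replicate block, the run of library numbers as a covariate or its smaller run left out, the compared groups alone, and each library left out in turn.

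All 10 genes are named. For each, the gene outside the 10 with the highest Pearson r over the 20 libraries is given (for Fcgr2b the 2 highest), and from each list the 2 called genes with the lowest adjusted p in each direction of each knockdown comparison. For the phagocyte NADPH oxidase list Ncf1 alone is given, and the list's counts are not reported here. Promoter windows come from RefSeq (GRCm38.p6), and gene positions and transcript lengths from the GENCODE M21 annotation.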

Additional observations from a re-analysis of the deposited data

Results flagged for a closer look

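In groups of 4 libraries, Dixon's criterion at the 95% level marked 2 values among 20 groups of gene and siRNA, and chance marks about 1 in 20. Mrc1 in replicate 3 of control siRNA with Dex+LPS, at 2190.5 normalized counts, lay above the other 3 libraries, which held 1935 to 1974. Clec4n in replicate 4 of Brg1 siRNA with Dex+LPS, at 472, lay below the other 3, which held 598 to 611. Without that library the Clec4n knockdown difference in Dex+LPS was 0.39 (limma, adjusted p = 0.0151), and 0.31 (adjusted p = 0.0519) with it.

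The knockdown effect differed between LPS and vehicle for 5 genes by the interaction term of limma. The differences on the log2 scale were -1.07 for Fcgr4 (adjusted p = 5.23e-06), -0.63 for Fcgr2b (adjusted p = 0.000237), 0.84 for Clec7a (adjusted p = 0.000318), 0.60 for Clec4d (adjusted p = 0.000575) and 0.65 for Mrc1 (adjusted p = 0.00207). In Fcgr4 and Mrc1 the knockdown effect was nearer to 0 with LPS than with vehicle. For Clec4d and Clec7a it was the larger with LPS. In Fcgr2b it was 0.49 with vehicle and -0.14 with LPS, and the value with LPS passed the threshold on plain library totals (-0.28, adjusted p = 0.00119) and with the run of library numbers as a covariate (adjusted p = 0.0301) and had an adjusted p of 0.121 in the fit reported.

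Between Dex+LPS and LPS the effect differed for 2 genes, by 0.74 for Fcgr1 (limma, adjusted p = 0.000686) and -0.49 for Clec4e (adjusted p = 0.009). Fcgr1 differed more between the siRNAs with Dex+LPS, and Clec4e less.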

How the results depend on the processing

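Counts of called genes among the 10 kept within 1.5 times the reported count, except in 5 cases of another setting and 2 of a library left out. For the knockdown in LPS (5 called), the fit with a replicate block and the fit with the run of library numbers as a covariate each called 8, adding Fcer1g and Clec4n as higher and Fcgr2b as lower (adjusted p = 0.0209, 0.0495 and 0.0423 with the block). The block also called Clec4n higher in Dex+LPS (adjusted p = 0.0223), the Dex+LPS interaction of Fcgr2b (adjusted p = 0.0176) and, with vehicle, 1 more of the other Fc receptor genes as higher. For the difference of the knockdown effect between Dex+LPS and LPS (2 called), plain library totals called 4, DESeq2 5 and the run as a covariate 5, and leaving out single libraries gave 2 to 5, the 5 without replicate 2 of control siRNA with Dex+LPS. For the Dex response with Brg1 siRNA (5 called), leaving out single libraries gave 3 to 5, the 3 without replicate 3 of Brg1 siRNA with LPS. Over all genes, the Dex+LPS interaction called 479 genes, and 727 with DESeq2, 730 with the run as a covariate, 300 without the 4 libraries of the smaller run and 319 with the compared groups alone.

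Every change of direction of an effect called under either setting came from plain library totals: Fcer1g to -0.023 in the LPS response with Brg1 siRNA and -0.022 with control siRNA, Clec7a to -0.68 in the LPS response with Brg1 siRNA, Fcgr3 to 0.25, Fcgr4 to 0.011 and Fcer1g to 0.25 in the Dex response with control siRNA, and Clec4d to 0.23 and Clec4e to 0.12 in the Dex response with Brg1 siRNA. That scale shifts the median of all genes in the same direction each time. Among the single-gene results, 823 kept their side of the threshold, and if called their direction, with a library left out, 12 passed the threshold anew and 25 no longer passed it. Under the other settings 1265 kept both, 31 passed anew, 16 no longer passed and 8 turned direction. These kept results include 25 sign changes, in 8 effects, of values called under neither setting, which lay within 0.16 of 0. Clec4n in Dex+LPS against vehicle with control siRNA (0.36, limma, adjusted p = 0.0178) was among those lost, without replicate 2 of control siRNA in vehicle or in Dex+LPS (adjusted p = 0.0894 and 0.0623) or with the compared groups alone (adjusted p = 0.0601).

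Most replicate numbers did not pair the libraries: of 46 pairs with the same number, 2 deviated together with r over 0.1 (r from -0.17 to 0.41), and 5 of 20 libraries correlated best with their own number. The highest r, 0.41, was that of replicate 4 of Brg1 siRNA and replicate 4 of control siRNA with Dex+LPS. Both libraries belong to the smaller run of library numbers, and what they share was not tested. The cause of the changes listed here was not tested. Precision rests on 3 or 4 libraries per group. The lowest value of the 10 genes was 302 normalized counts, and the part of depth in the calls was not tested.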
